A study of Mus musculus with 24 samples.

Results

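In mouse limb buds, 793 genomic regions carried an H3K27ac peak in 3 of 4 deposited peak lists and none in the remaining list, which came from Sox9-deficient tissue. They were found by merging all overlapping peaks of the 4 lists into 49367 regions and keeping those overlapped, by at least 1 bp, by peaks of both control lists and of 1 deficient list. They made up 1.61% of all regions. Of the 20585 regions marked in the same 3 lists, 3.85% were not marked in the fourth. The regions were chosen by the presence and absence of peaks in these lists, so both are a description of the choice and not a result. The regions were weakly scored in the lists that held them, nearly all lay away from gene starts, and 14 were nearest to 7 of 31 chondrogenic regulators, including Sox5 and Sox6. Of the distal regions of these regulators marked in the same 3 lists, 9.29% were not marked in the fourth, near the 7.3% over all genes.

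H3K27ac is acetylation of lysine 27 on histone H3. The acetyltransferases p300 and CBP place it on nucleosomes beside active promoters and active enhancers, so a distal acetylated region is commonly read as a candidate enhancer, often tissue specific. Sox9 is a transcription factor with an HMG box that binds short DNA motifs and is needed to form cartilage from limb mesenchyme. It works with Sox5 and Sox6, which lack its activation domain and help it drive cartilage matrix genes such as Col2a1 and Acan.

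The series holds 24 chromatin immunoprecipitation libraries of mouse limb buds, of which the 4 H3K27ac libraries with peak lists were used and the other 20 were not analysed here. By sample title, 1 control and 1 Sox9null library are from E11.5 embryos, where E is the embryonic day, and 1 control and 1 Sox9cKO library are from E12.5 embryos. The driver of the conditional deletion, the alleles the controls carry and any pooling of embryos are not given in the labels. The names of the deposited lists go against these titles in the deficient pair. The list without the 793 regions, called the lacking list below, belongs to the sample titled Sox9cKO E12.5 but carries a name that says Sox9null E11.5. The other deficient list belongs to the sample titled Sox9null E11.5 and carries a name that says Sox9cKO E12.5. The same 793 regions result under either reading, and only the name of the lacking library changes. Which stage and which kind of deficiency that library stands for cannot be told apart here. Regions marked in the lacking list and in 1 control list alone numbered 3186 with control E11.5 and 972 with control E12.5. Those marked in the other deficient list and in 1 control list alone numbered 312 with control E11.5 and 1819 with control E12.5. By this count each deficient list shared more regions with the control of the stage in its deposited name than with that of its sample title. Since there is 1 library a group, no difference has a replicate check, no test was made, and intervals cover counting error only.

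The lists held 28419 to 36937 peaks covering 52.0 to 66.7 Mb, and the lacking list was the one with 36937 peaks. Read depth is unknown, and the number and width of peaks move with it. The Sox9 gene on chr11 was still partly covered by peaks in every list, over 96.6% of its length in control E11.5, 81.3% in control E12.5, 55.8% in the other deficient list and 54.3% in the lacking list, and a histone mark does not show which bases were deleted. As to tissue, peaks lay at the starts of 45 to 49 of 49 limb patterning genes and 1 to 2 of 25 genes of inactive tissues. Gene starts of other cell types were marked most often in the lacking list: 18 of 30 for skeletal muscle against 11 to 15 in the others, 10 of 20 for endothelium against 5 to 7, 7 of 23 for blood cells against 2 to 6, 16 of 27 for surface ectoderm against 9 to 13, and 7 of 20 for nerve against 4 to 6. Tendon genes went otherwise, with 13 of 18 marked in the lacking list, 12 in control E11.5 and 15 in the remaining lists. The lacking list, which held the most peaks, also marked the most starts of limb patterning, Wnt pathway, retinoic acid and Notch, and condensation genes. For the Wnt pathway it was 37 of 43 against 30 to 34. It did not lead for cartilage matrix (19 of 30 against 17 to 22), BMP and joint, TGF-beta pathway, or growth plate and bone genes. Higher counts in the lacking list were thus seen both in lists of other cell types and in some lists of limb and signalling genes. The part of cell makeup in the 793 regions was not tested.

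The 793 regions overlapped 21 RefSeq promoter windows of 20 genes. Each window runs from 250 bases before to 50 after a gene start on GRCm38.p6, the assembly of the files' build mm10. A pair of 6-letter words of the kind bound by Sox proteins, ACAAAG and ACAATG, was searched on both strands. At least 1 was in 7 of the 21 windows (33.3%, Wilson 95% interval 17.2 to 54.6) and in 5465 of 21262 windows of all protein-coding genes (25.7%), so the interval of the former includes the latter. A word in a window is a description and not a binding site. The windows below are shown because they are the promoter sequence under some of these regions. Prickle2 and Sp9 are among the regions at a gene start with the highest score ranks and hold neither word. Sptlc3 and Sox6 hold 4 and 3. The Sox6 window is at a start inside the gene, and the Sp9 and Sptlc3 windows are only partly within their regions, so that the first word of Sptlc3 lies outside its region. Capitals mark the words or their reverse complements, and each window reads 5′ to 3′ along the gene's strand.
Prickle2: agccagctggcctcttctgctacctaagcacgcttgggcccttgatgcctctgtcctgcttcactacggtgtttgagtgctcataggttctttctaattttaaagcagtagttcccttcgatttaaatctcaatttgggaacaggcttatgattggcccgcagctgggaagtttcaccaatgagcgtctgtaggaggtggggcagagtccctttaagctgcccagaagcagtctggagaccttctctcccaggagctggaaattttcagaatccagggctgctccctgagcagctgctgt
Sp9: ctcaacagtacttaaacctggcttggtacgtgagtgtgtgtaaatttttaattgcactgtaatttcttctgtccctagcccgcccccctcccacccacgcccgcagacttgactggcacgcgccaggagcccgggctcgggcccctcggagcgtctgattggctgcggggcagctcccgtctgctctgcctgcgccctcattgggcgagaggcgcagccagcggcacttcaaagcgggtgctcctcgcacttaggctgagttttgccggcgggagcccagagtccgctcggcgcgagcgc
Sptlc3: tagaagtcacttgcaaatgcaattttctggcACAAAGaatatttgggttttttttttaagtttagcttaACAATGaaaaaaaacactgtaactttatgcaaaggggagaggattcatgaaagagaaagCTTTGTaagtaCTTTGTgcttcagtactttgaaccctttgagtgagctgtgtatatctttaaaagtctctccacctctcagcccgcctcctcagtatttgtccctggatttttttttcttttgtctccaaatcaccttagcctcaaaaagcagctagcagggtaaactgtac
Sox6: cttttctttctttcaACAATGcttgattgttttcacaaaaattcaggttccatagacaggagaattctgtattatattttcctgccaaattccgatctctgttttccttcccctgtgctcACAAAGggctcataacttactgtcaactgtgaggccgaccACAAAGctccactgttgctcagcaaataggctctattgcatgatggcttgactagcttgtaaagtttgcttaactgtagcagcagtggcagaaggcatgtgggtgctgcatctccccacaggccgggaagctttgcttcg
Prickle2, on the minus strand at chr6:92534812-92535111, encodes a planar cell polarity protein. Sp9, on the plus strand at chr2:73271676-73271975, encodes a zinc finger factor of the limb's apical ectodermal ridge. Sptlc3, on the plus strand at chr2:139493663-139493962, encodes a subunit of serine palmitoyltransferase, which starts sphingolipid synthesis. The Sox6 window is on the minus strand at chr7:115824661-115824960. No mature miRNA sequence is shown because no RefSeq miRNA hairpin overlapped any of the 793 regions.

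Each peak carries a score that the lists do not explain, so it was used only to rank peaks within a list. The lowest score of a list was 50.01 to 50.03, so scores near 50 are at the bottom of a list. The score percentile of a region is that of its best peak among all peaks of the same list, with 100 the highest. The 793 regions had a median score of 75.39 in control E11.5, at percentile 26.7 of that list. In control E12.5 their median score was 155.24, at percentile 38.4. In the other deficient list it was 103.93, at percentile 27.4. Regions marked in all 4 lists had median percentiles of 71.8, 69.1 and 64.5 in the same lists. The 793 thus ranked in the lower part of every list that held them. In control E12.5, 224 of them (28.2%) were in the upper 50% of the list, compared with 62 (7.82%) in control E11.5 and 86 (10.8%) in the other deficient list. None was in the top 10% of any of these lists, the highest being at percentile 88.7 of control E12.5.

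**Figure D1:**
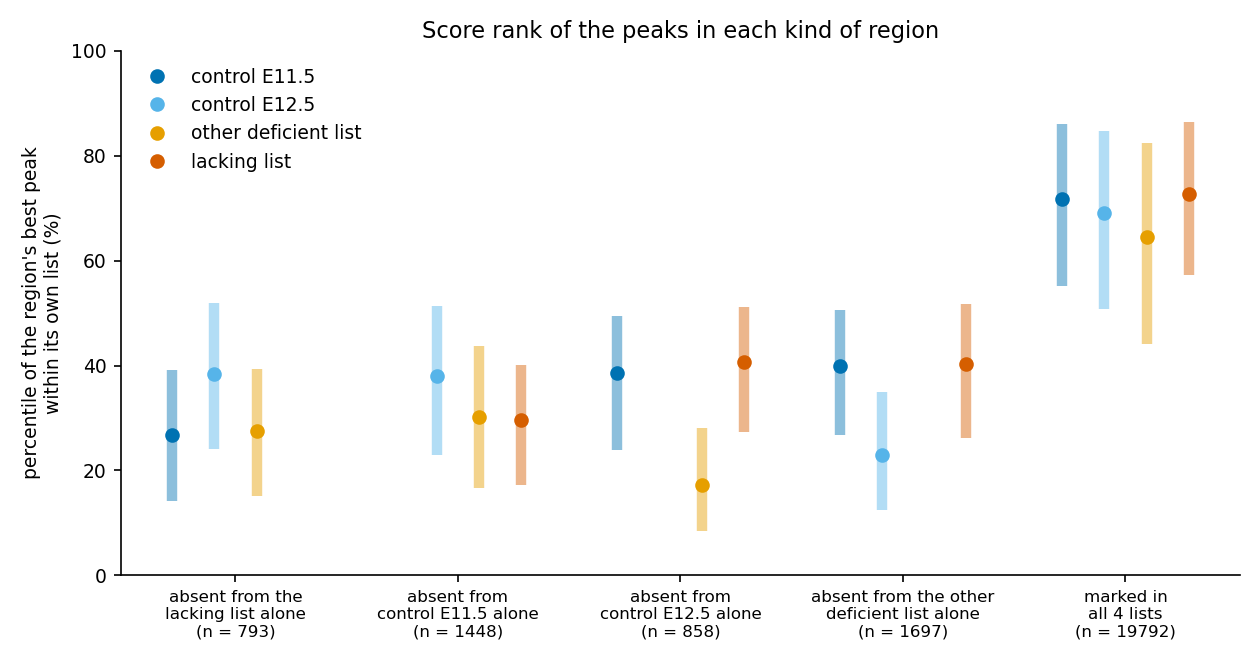
Score percentile of a region's best peak within each list that held it (points, medians; bars, quartiles), for the 793 regions, the sets absent from 1 other list alone and the regions marked in all 4 lists. The 793 centre on percentiles 26.7, 38.4 and 27.4, and regions marked in all 4 lists on 71.8, 69.1 and 64.5.

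The lowest of a region's 3 percentiles ran from 0.0211 to 58.3, with a median of 14.4 (95% interval of the median 12.9 to 15.8). Below percentile 10 in at least 1 list were 301 regions (38.0%), against 989 of the 19792 regions marked in all 4 lists (5.0%). Regions absent from any other single list ranked low as well. Their median lowest percentile was 17.1 for the 1448 absent from control E11.5 alone, 13.1 for the 858 absent from control E12.5 alone and 16.9 for the 1697 absent from the other deficient list alone. These made up 2.93, 1.74 and 3.44% of all regions and 6.82, 4.15 and 7.9% of the regions marked in the respective 3 other lists, so that the lacking list, with 1.61 and 3.85%, had the fewest regions absent from it alone. With the same number of best peaks taken from each list, the counts were 818 for the lacking list and 846 for the other deficient list, so the difference between these lists was then small.

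Among regions marked in the 3 other lists, the share without a peak in the lacking list was lower in each higher bin of score rank. It was 23.3% (301 of 1290) where the lowest percentile was 0 to 10, 14.6% at 10 to 20, 9.35% at 20 to 30, 4.37% at 30 to 40, 1.78% at 40 to 50 and 0.400% (9 of 2248) at 50 to 60. Of 9967 regions above percentile 60 in all 3 lists, none was without a peak there. For the same bin of 0 to 10, the share was 33.4% for control E11.5, 27.01% for control E12.5 and 42.7% for the other deficient list. In all 4 lists the share was lower in each higher bin, and in the bin of 0 to 10 the lacking list had the lowest share.

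**Figure D2:**
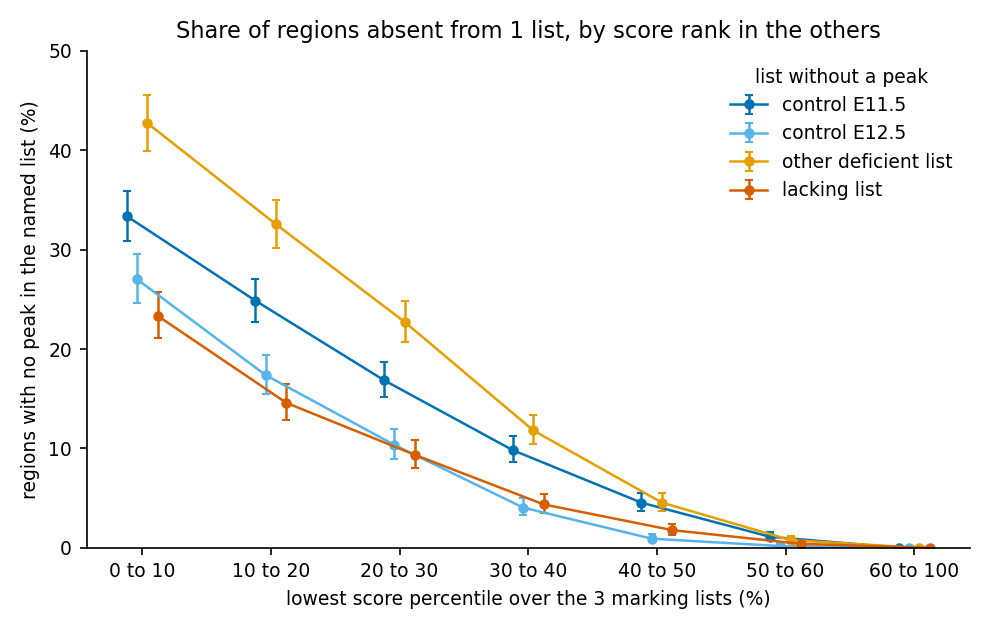
Share of regions without a peak in 1 list, among regions marked in the 3 others, against the lowest score percentile in those 3, with Wilson 95% intervals. For the lacking list it runs from 23.3% in the lowest bin to 0 of 9967 regions above percentile 60.

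Near the threshold, the rule turned on a few bases. A region nearest to Rcsd1 was 1 bp from a peak of the lacking list, and one nearest to Atg7 was 19 bp away. Just outside, a region nearest to Sult2b1 overlapped a peak of the lacking list by 54 bp, one nearest to Nrsn1 by 71 bp and one nearest to Tbc1d10a by 130 bp. Only 6 regions marked in all 4 lists had less than 200 bp of overlap with the lacking list.

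The 3 lists that held the regions did not mark them alike. Peaks of control E12.5 covered a median of 90.3% of a region's length (1610 bp), those of the other deficient list 80.3% (1383 bp) and those of control E11.5 44.2% (791 bp). In regions marked in all 4 lists the medians were 90.4, 88.9 and 77.5%. The whole regions were 770 to 7809 bp long, with a median of 1919 bp against 2439 bp for those marked in all 4 lists. Control E12.5 ranked a region higher than control E11.5 in 553 of the 793 (69.7%). The same held in 37.4% of the 9825 regions marked in all 4 lists with a lowest percentile under 60. The other deficient list ranked above control E11.5 in 410 (51.7%) against 28.3%. Control E12.5 ranked above the other deficient list in 559 (70.5%), close to the 69.2% of the compared regions. Control E12.5 gave the highest percentile in 454 regions (57.3%), control E11.5 in 186 and the other deficient list in 153. The regions were thus most often highest and longest in control E12.5 and lowest in control E11.5 (356 regions, 44.9%) or the other deficient list (302, 38.1%).

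Nearly all regions lay away from gene starts. Only 36 (4.54%, 3.30 to 6.22) came within 1000 bp of one, 25 by a start of known strand and 11 by either end of a gene without such a start, which may be its 3′ end. A further 74 (9.33%) were 1 to 10 kb away, 424 (53.5%) were 10 to 100 kb away and 259 (32.7%) were over 100 kb away, with a median of 57.3 kb. Of regions marked in all 4 lists 51.4% were at a gene start, and of all 49367 regions 25.7%. The low share was also present within bins of score. At a lowest percentile of 0 to 10 it was 5.98% of these regions and 18.6% of those marked in all 4 lists, and at 30 to 60 it was 2.29% and 36.9%. Regions absent from control E11.5 alone had a like share, 4.28%, whereas it was 18.2% for those absent from control E12.5 alone and 24.0% for those absent from the other deficient list alone. The regions were divided about evenly between gene bodies, with 389 (49.1%), and the space between genes, with 404 (50.9%). Exons and introns were not told apart here. Counting only regions over 1 kb from a gene start, 757 of 10368 marked in the 3 others (7.3%) were absent from the lacking list, compared with 12.6% for control E11.5, 6.81% for control E12.5 and 11.8% for the other deficient list.

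**Figure D3:**
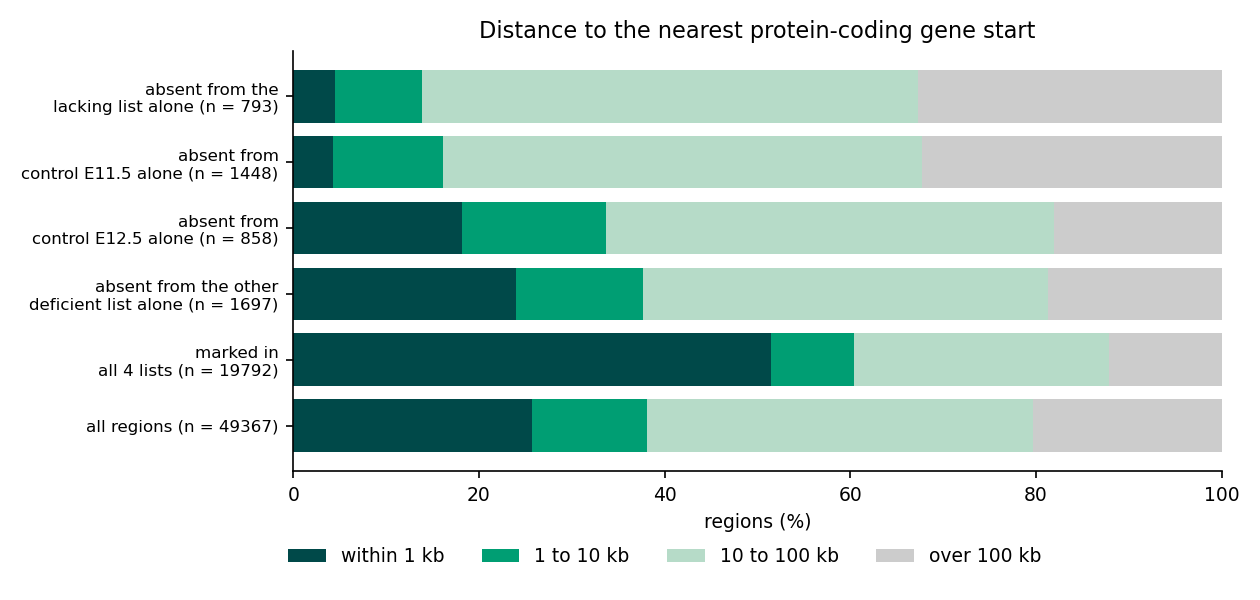
Share of regions at each distance from the nearest gene start, for the 793 regions, the sets absent from 1 other list alone, the regions marked in all 4 lists and all 49367 regions. The 793 have 4.54% at a gene start and 32.7% over 100 kb away.

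Absence of a peak did not mean an empty neighbourhood in the lacking list. Its nearest peak was a median of 9.11 kb away, within 1 kb for 80 regions (10.1%), within 5 kb for 271 (34.2%, 31.0 to 37.5), within 20 kb for 534 (67.3%) and within 100 kb for 742 (93.6%). For the sets absent from another list alone, a peak of that list was within 5 kb in 32.6% (control E11.5), 31.6% (control E12.5) and 24.7% (other deficient list). In the 20 kb on either side of the 793 regions, the lists covered on average 2.29 kb (control E11.5), 4.17 kb (control E12.5), 3.61 kb (other deficient) and 2.68 kb (lacking). Around regions marked in all 4 lists these means were 2.35, 3.10, 2.84 and 2.75 kb. Hence the flanks of the 793 carried more mark in control E12.5 and the other deficient list, and about the same in control E11.5 and the lacking list. All 4 lists had a peak in these flanks for 447 regions, the 3 other lists without the lacking one for 19, the lacking list alone for 17 and no list for 134.

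**Figure D4:**
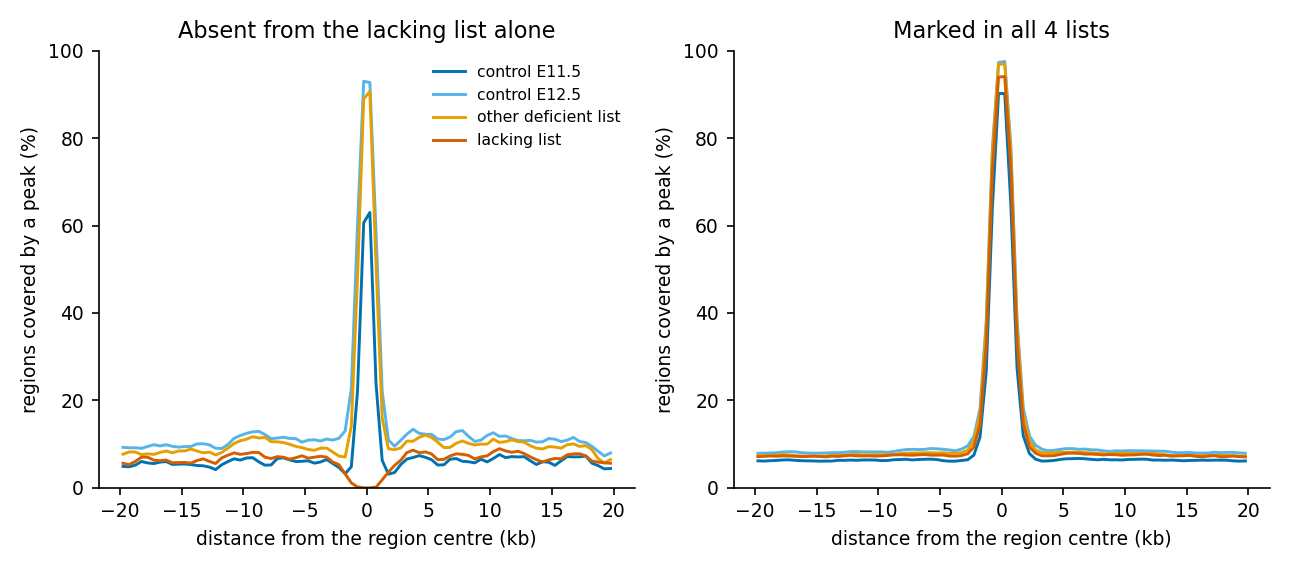
Share of regions covered by peaks of each list in 500 bp bins, by distance in kb from the centre of the region, for the 793 regions and for regions marked in all 4 lists. Over the centres of the 793 the lacking list is near 0 by the rule, and in their flanks control E12.5 and the other deficient list lie above control E11.5 and the lacking list.

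The 793 regions were nearest to 664 of 21883 protein-coding genes (3.03%), or 4.61% of the 14405 genes nearest to any region. Of these, 565 genes had 1 of the regions, 73 had 2, 23 had 3, and Creb5 and Actbl2 had 4 each and Intu 5. Some regions stood close together: 109 (13.7%) fell in 50 clusters with gaps of at most 50 kb, and 9 clusters held 3. Neighbouring regions are therefore not independent of each other. The nearest gene is a label of position and not a known target.

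In the 20 regions with the highest lowest percentile, 47.7 to 58.3, control E12.5 ranked highest in 17. The first, chr6:113011250-113014671, lay 31.6 kb from Thumpd3, which encodes a protein of tRNA methylation. Its scores were 243.99 in control E11.5, 1049.64 in control E12.5 and 393.44 in the other deficient list, and peaks covered 1713, 3422 and 2661 bp of it. The lacking list had a peak 2.4 kb away. A region within Fgfr2, the receptor of FGF signals in limb outgrowth and skeletal growth, at chr7:130181424-130185712, scored 169.78, 1184.36 and 343.18 in the same order. Its control E12.5 peak was at percentile 83.4, and the lacking list had a peak 4.1 kb away. Fbp1, a gluconeogenic enzyme, held a region scored 376.9, 1468.7 and 212.5. Snx19, a sorting nexin, was nearest to one scored 164.13, 1000.04 and 271.34. These 4 regions had the highest control E12.5 scores of the 20, so their rank in that list is no separate result.

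Others of the 20 lay at genes of the matrix, of signalling and of transcription. Ust, which sulphates uronic acid in chondroitin and dermatan sulphate, was nearest to a region scored 220.2, 466.6 and 295.1. A region within Adamtsl1, an ADAMTS-like matrix protein, scored 217.4, 626.7 and 296.1. Maml3 and Maml2, coactivators of Notch, held one each, scored 195.2, 388.1 and 445.6 for Maml3 and 148.7, 525.2 and 206.6 for Maml2. The Maml3 region was 1 of 2 of the 20 that ranked highest in the other deficient list. Foxp1, a forkhead factor, and Zfp521, a zinc finger factor, Enpp2, which makes lysophosphatidic acid, Alk, a receptor tyrosine kinase, and Piezo2, a mechanically gated channel, were also nearest to one. The remaining genes were Derl3, Uroc1, Lsamp, Tmcc3, 1700011L22Rik, Fam169b and Atp9b. None of the 20 was at a gene start, 14 were within a gene body, and the lacking list had a peak within 5 kb of 5.

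The 36 regions at gene starts, 11 of them at either end of a gene of unknown strand, had median percentiles of 25.5, 32.9 and 22.5 in control E11.5, control E12.5 and the other deficient list, and none was above percentile 41.0 in all 3. The first was at an end of Armc4, which takes part in building ciliary dynein arms, with scores of 120.8, 170.2 and 212.9. One at an end of Scgb1a1, a secretoglobin of airway cells, had 110.0, 171.2 and 131.8. Prickle2 had 175.4, 131.6 and 122.9 and ranked highest in control E11.5. Sp9 had 132.4, 179.2 and 101.2, and the lacking list had a peak 1.1 kb from it. Gpx4, which reduces lipid peroxides, had 224.8, 173.5 and 104.0, and Pdlim3, a LIM protein of muscle, 76.3, 169.6 and 85.5. Sptlc3 had 64.7, 90.1 and 141.8. Rnf112, again at an end of unknown strand, 1700122O11Rik and Mybph, a myosin-binding protein, complete the first 10. These regions thus shared no list in which they were highest: control E12.5 led in 17 of the 36, control E11.5 in 12 and the other deficient list in 7.

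Chondrogenic regulators had 14 of the regions, over 7 of 31 genes (22.6% beside 3.03% of all protein-coding genes). These genes have many marked regions around them, 479 in all. Counted over distal regions marked in the 3 others, 13 of 140 (9.29%) were absent from the lacking list, against 7.3% over all genes. Control E12.5 ranked highest in 9 of the 14, and its peaks were the longest in 12. The other deficient list ranked lowest in 9. Most of these regions thus ranked higher in control E12.5 than in the other deficient list.

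Sox6, partner of Sox9, had 3 regions. The one at chr7:115613914-115617433, within the gene, scored 111.25 in control E11.5, 807.72 in control E12.5 and 210.32 in the other deficient list, with 799, 3520 and 2373 bp covered. The one over the start inside the gene scored 120.7, 540.5 and 60.2. The third, 87.0 kb outside the gene, scored 77.17, 449.87 and 50.02, so in the other deficient list it was among the lowest peaks. Sox5, the other partner, had 3 regions within the gene in a stretch of 19.8 kb, chr6:144038619-144058392. Their scores were 107.2, 349.2 and 62.5 for the first, 77.6, 510.0 and 62.7 for the second and 167.9, 1091.3 and 50.4 for the third. All 3 ranked highest in control E12.5 and at percentile 9.1 or below in the other deficient list, and the lacking list had no peak within 100 kb of them.

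Sox11, a factor of mesenchymal progenitors, was nearest to 3 regions, each 159.7 kb or more from the gene. They scored 110.98, 132.71 and 92.25, then 77.8, 74.9 and 124.4, then 56.9, 418.3 and 103.9. By percentile within each list, which need not follow the scores across lists, each ranked highest in a different list. The first was highest in control E11.5, the second in the other deficient list and the third in control E12.5. Runx1, a runt factor of skeletal progenitors and blood, had 1 within the gene (207.4, 219.2 and 80.8) and 1 outside it (62.4, 194.2 and 54.1). Nfib and Nfia, nuclear factor I proteins, had 1 each. The Nfib region scored 109.8, 152.4 and 91.4 and the Nfia region 86.7, 60.7 and 177.4. A region nearest to Zeb2, a zinc finger repressor, lay 1324.3 kb from it, too far for the name to mean more than position. None of the 30 cartilage matrix genes, the 24 growth plate and bone genes or the 20 TGF-beta pathway genes was nearest to one. These lists had few distal regions marked in the 3 other lists, 23, 22 and 38, and at the 7.3% of all genes only a few would be absent from the lacking list, so nothing is read from these counts of 0.

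Around the Sox9 gene itself, the gene-poor stretch up to Gm11677 held 51 regions, 8 of them marked in all 4 lists and 2 of the 793. These were at chr11:112043094-112045716 and chr11:112162879-112165241, 736.5 and 617.0 kb from Sox9. A further region nearest to Gm11677, chr11:111657355-111658977, lay on the far side of that gene from Sox9 and so outside this stretch. The stretch on the other side, up to Slc39a11, held 30 regions, 8 marked in all 4 lists and 0 of the 793.

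Limb patterning genes had 8 of the regions over 8 of 49 genes, and 7.55% of their distal regions marked in the 3 others were absent from the lacking list, near the 7.3% of all genes. Sall1, a zinc finger factor of digit formation, was nearest to one scored 153.0, 126.5 and 229.7. Hand2, a posterior limb factor, had one scored 113.7, 179.3 and 118.0. Gli3, the hedgehog transcription factor that limits digit number, had one scored 125.3, 266.5 and 83.4, with a peak of the lacking list 0.4 kb away. Prrx1, a factor of early limb mesenchyme, had one that scored 51.0 in control E11.5 and 296.7 and 217.2 in the others, so it was near the bottom of the control E11.5 list. Twist2, a repressor of mesenchymal differentiation, ran the other way, with 145.5 in control E11.5 and 64.3 and 54.1 in the others. Alx4, a factor of anterior limb patterning, had one scored 59.3, 61.4 and 50.5, low in every list. These 8 regions did not share 1 order of lists: control E12.5 and control E11.5 ranked highest in 3 each and the other deficient list in 2.

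Wnt pathway genes had 8 regions over 7 of 43 genes (7.41% of distal regions). Wnt5a, a ligand of limb elongation, was nearest to one scored 51.7, 268.4 and 96.8. Its receptor Ror2 had 2 (122.5, 79.6 and 118.0, and 55.4, 98.4 and 62.1), and the related receptor Ror1 had 1 scored 54.6, 66.2 and 52.2. The receptor Fzd2 had one scored 51.5, 424.0 and 217.3, the factor Tcf7l2 one scored 52.1, 347.3 and 223.8, and Tcf7l1 one scored 77.2, 209.4 and 157.0. Axin2, a feedback inhibitor, had one scored 158.73, 132.95 and 54.95. Those of Wnt5a, Fzd2 and Tcf7l2 thus stood at the bottom of control E11.5 and well above it in control E12.5.

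FGF pathway genes had 5 regions over 5 of 22 genes (10.2% of 49 distal regions). Beside Fgfr2, Fgfrl1, a decoy-like FGF receptor, had one scored 265.8, 677.4 and 138.0. Fgf9, a ligand of skeletal and mesenchymal growth, had one scored 70.5, 152.6 and 119.3. Fgf8, the ligand of the apical ridge, had one scored 65.2, 65.2 and 70.2, and Spred2, an inhibitor of the pathway, one scored 50.1, 120.9 and 95.8. The Fgfr2 and Fgfrl1 regions, both highest in control E12.5, stood above the other 3 in every list. The hedgehog pathway had 1, nearest to the co-receptor Gas1 (101.6, 79.0 and 120.0), or 1.75% of 57 distal regions. The listed BMP and joint genes had 1, nearest to the joint factor Osr2 (273.8, 259.6 and 64.2), or 1.59% of 63 distal regions. Creb5, a joint factor given below, is outside that list.

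Genes of condensation and adhesion had 6 regions over 6 of 28 genes, 7.5% of their distal regions. Tnc, the matrix glycoprotein tenascin C, was nearest to one scored 75.8, 350.3 and 52.1. Nrp2 and Nrp1, semaphorin and VEGF co-receptors, had one each, scored 68.5, 243.4 and 135.2 and 55.2, 193.4 and 114.6. Efna5, Col5a1 and Ncam1 had 1 each. Retinoic acid and Notch genes had 5 over 3 of 27 genes: 3 at Maml2, 1 at Rxra, a retinoid receptor, and 1 at Crabp1, which binds retinoic acid. These were 7.69% of their 65 distal regions, near the 7.3% of all genes. Control E12.5 ranked highest in 4 of the 6 and in 4 of the 5.

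Among the listed genes of other cell types, tendon genes had 3 regions, 2 nearest to Tcf4, a basic helix-loop-helix factor, and 1 to Mkx, a tendon homeobox factor. The limb connective tissue marker often called TCF4 is the gene Tcf7l2, given above with the Wnt pathway. The 2 Tcf4 regions are therefore not read as tendon regions. Endothelial genes had 4 regions over 3 of 20 genes, 2 nearest to Cdh5 but 618.7 and 649.1 kb from it, 1 at Fli1 and 1 at Lyve1, or 4 of 29 distal regions (13.8%). The Fli1 region, within the gene of this vascular and blood factor, scored 139.4, 420.3 and 371.1. Ptprc, of blood cells, was nearest to 2 and the listed muscle genes Eya2 and Myog to 1 each. Of the listed surface ectoderm genes only Fgf8 was nearest to one, by the region given above. Sp9, Mybph, Pdlim3 and Nrsn1, named elsewhere in the text, are outside these lists, so the counts cover the listed genes alone. Listed genes of nerve and glia, listed housekeeping genes and listed genes of inactive tissues were nearest to none. They had only 11, 12 and 2 distal regions marked in the 3 other lists, so nothing is read from these counts of 0. Over the distal regions marked in the 3 other lists, the share for the tendon list was 3 of 27 (11.1%), with 2 of the 3 nearest to Tcf4. It was 2 of 17 (11.8%) for blood cells, 2 of 24 (8.33%) for muscle and 1 of 16 (6.25%) for surface ectoderm, beside 7.3% for all genes. Each share rests on 4 regions at most.

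The mark around the genes named by these regions was counted also over their other regions, leaving out the 793. Over 641 genes with such a region, the median covered length was 7.06 kb in control E11.5, 12.4 kb in control E12.5, 9.84 kb in the other deficient list and 9.27 kb in the lacking list. In 333 genes (52.0%) control E11.5 and the lacking list were both below both other lists, compared with 21.8% of 13741 genes nearest to none of the 793. The lacking list was below control E12.5 in 463 (72.2%, against 40.7%) and below all 3 others in 83 (12.9%, against 10.02%). Among the 26 genes nearest to 3 or more, the medians were 19.2, 42.6, 37.0 and 23.3 kb, and 22 had both lists below both others. Over the 641 genes the lacking list was below the other deficient list in 59.3% (against 34.7%) and below control E11.5 in 21.7% (against 27.2%). The 13741 compared genes had less cover, with medians of 2.1 to 2.4 kb, so the shares come from unlike sets. By median cover, the lacking list thus lay between control E11.5 and the other deficient list. It was nearer the latter over the 641 genes and nearer control E11.5 over the 26.

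**Figure D5:**
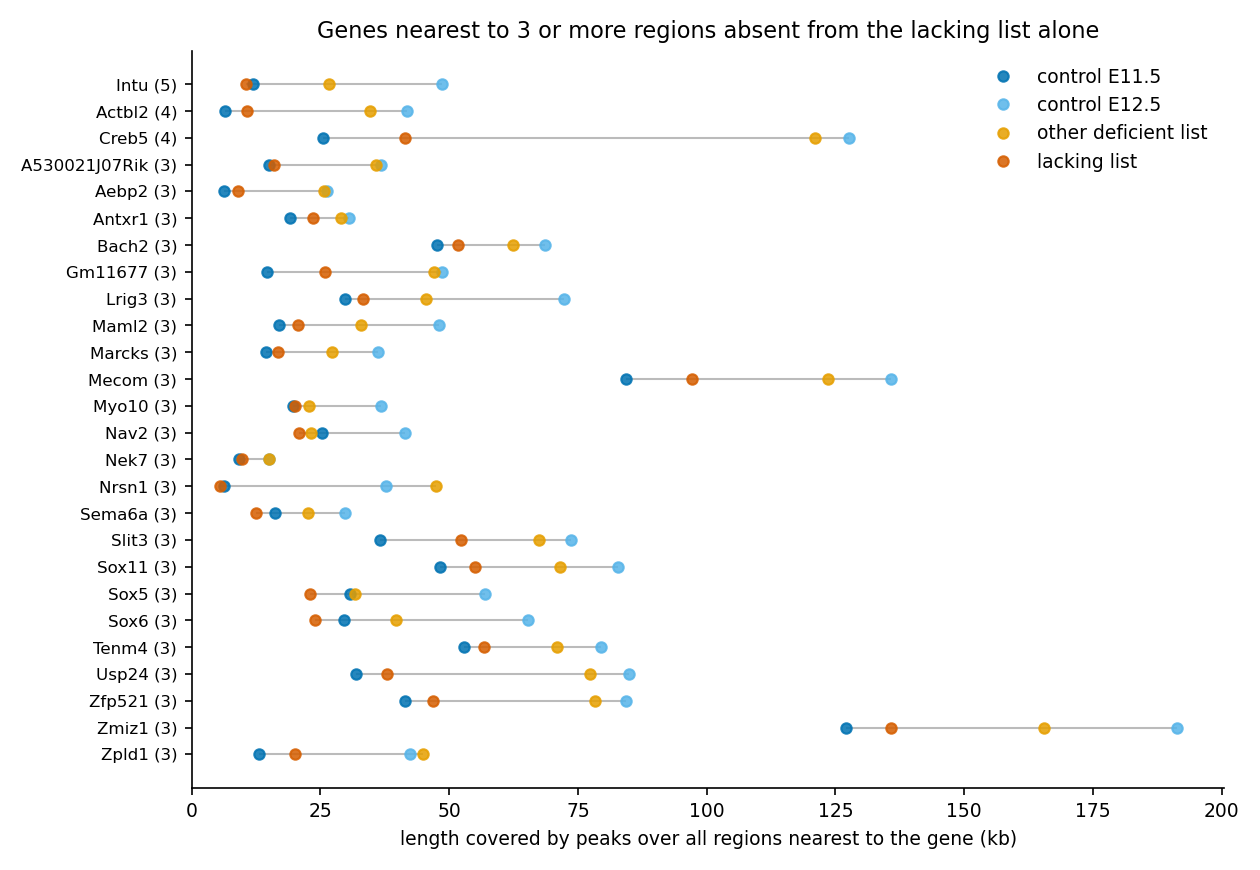
Length covered by peaks in each list, in kb, over all regions nearest to each of the 26 genes with 3 or more of the 793 regions. For Creb5 control E12.5 and the other deficient list reach 127.7 and 121.1 kb, and control E11.5 and the lacking list 25.5 and 41.5 kb.

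Creb5, a leucine zipper factor of joint and articular cartilage, had 50 regions, 4 of them among the 793. Peaks over its regions covered 25.5 kb in control E11.5, 127.7 kb in control E12.5, 121.1 kb in the other deficient list and 41.5 kb in the lacking list. Intu, a planar polarity protein of the cilium, had 11.8, 48.6, 26.6 and 10.6 kb, and Actbl2, an actin-like gene, 6.40, 41.9, 34.6 and 10.8 kb. Nrsn1, a neuronal membrane protein, had 6.27, 37.7, 47.4 and 5.39 kb. Sox5 had 30.7, 56.9, 31.6 and 23.0 kb and Sox6 29.6, 65.2, 39.8 and 23.9 kb. At Sox5 and Sox6 control E12.5 thus stood above the other 3 lists, and at Creb5, Actbl2 and Nrsn1 control E12.5 and the other deficient list stood above the rest. In these sums the lacking list has 0 over the 793 regions by the rule.

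The widest region, 7809 bp within Zfp618 at chr4:63027631-63035439, scored 100.43, 1187.62 and 536.09. Control E12.5 peaks covered all of it and control E11.5 peaks 1823 bp. Filip1l, Noct, Sec14l1 and Pmfbp1 followed in width. Farthest from any peak of the lacking list was the region nearest to Zeb2, chr2:46441754-46444975, at 1005.6 kb, with scores of 63.5, 313.3 and 215.4. Regions nearest to Api5, Slitrk6, Prr16 and Depdc1a were 436.6 to 765.9 kb from one.

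Chromosome X held 4 of the regions, 0.792% of its 505 marked in the 3 others, whereas the autosomes ran from 2.49% on chromosome 11 to 5.94% on chromosome 6. Counting only distal regions, it was 4 of 176 (2.27%) on X and 5.02 to 10.3% on autosomes. The share absent from another list on X was 2.72% for control E11.5, 2.15% for control E12.5 and 8.07% for the other deficient list.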

How the data were processed

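Of 24 libraries, the 4 H3K27ac libraries with peak lists were analysed and 20 were not analysed here. Each deposited list gives peak positions and a score that the authors' files do not explain. The submitters' processing notes name the build mm10, CASAVA 1.8 and deepTools. Peak names in the deposited lists begin with MACS. The caller's settings, the aligner and any input library were not given in the sources used here. Peaks overlapping by 1 bp were merged into regions (Python 3.11.15, pandas 2.3.3, numpy 2.4.6). Scores were ranked within a list, ties at their mean rank. Gene starts came from RefSeq promoter windows (GRCm38.p6) for 17491 protein-coding genes and, for 4392 without one, from either gene end, with a window of 1000 bp. The nearest gene is the nearest gene body. All 499 symbols of 19 gene lists matched. Wilson 95% intervals (scipy 1.17.1) cover counting error only. Counting of such regions was tested on simulated lists. Replicates number 1 a group, so no test was made. Regions, lists and choices were chosen with earlier results of these data known. Genes were named by a rule: the 20 regions with the highest lowest percentile, 10 such at gene starts, all at cartilage and chondrogenic genes, up to 4 or 2 for each other gene list, the 5 widest, the 5 farthest from the lacking list, and genes nearest to 3 or more. Further genes of these lists, and those at the edge of the rule and beside Sox9, were named after their values were seen. Some genes named by this rule are not reported here.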

Additional observations from a re-analysis of the deposited data

How the results depend on the processing

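The number of regions was 713 to 818 with the 28419 best peaks of each list, autosomes alone, peaks up to 500 bp apart merged, a presence of 200 bp, or no lacking-list peak within 1000 bp. With the upper 50% of each list it was 193, with a median lowest percentile of 9.20, 6.74% at a gene start, 3 chondrogenic regulator genes and 18.1% with a lacking-list peak within 5 kb, where all shares count only the retained peaks. A gene-start window of 2500 bp gave 6.31%. The share with a lacking-list peak within 5 kb was 26.5% with equal numbers of peaks, 28.1% with merging over 500 bp and 26.8% without regions within 1000 bp, which that setting removes by construction. It was 10.1% within 1 kb and 67.3% within 20 kb. Regions absent from 1 other list alone numbered 434 (control E11.5), 306 (control E12.5) and 1182 (other deficient list) in the upper 50%. With equal numbers of peaks they numbered 1357, 905 and 846 in the same order. Chondrogenic regulator genes numbered 6 to 10 under the remaining settings, and all 7 alternatives for this count were added after seeing the data. No paired analysis was possible because each group has 1 library. Depth is unknown, so an absent peak shows only that none was called.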
